A study of Mus musculus with 4 samples.

Results

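Hcn2, Kcnj14, Kcnh7, Kcnv2 and Kcna1 are 5 of the 32285 genes measured in this series. Each was taken by its symbol from the gene list of every count matrix, and all 5 were found. They encode 1 pacemaker channel subunit of the HCN family and 4 potassium channel subunits, and they were chosen because they had been seen to differ between layers of the retina in these same data. Their levels by layer are therefore given as descriptions, without tests.

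The RNA came from posterior eyes of C57BL/6J mice that were frozen fresh, cryosectioned and laid on Visium slides, where each spot of a grid captures the RNA above it and every captured molecule is counted as a unique molecular identifier (UMI). There were 4 frames, labelled as biological replicates 1 to 4, with 1 library each. All 4 carry the same label, tissue retina with the treatment Naive+AAV2/2, and their RNA is labelled as nuclear. The study design names AAV2/2 vectors that express Wif1, a secreted inhibitor of Wnt signalling, from a CMV promoter, and a vector carrying CMV-IRES-GFP as the control. It also names a control group and later times after injection for the spatial experiment, but the labels do not tie a frame to any of them, so no condition was compared here. No age or number of animals per frame is stated in the labels.

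Ion channels set how a retinal cell answers light. HCN channels open when the membrane becomes more negative and carry a depolarising inward current, while potassium channels pull the membrane back toward rest. Photoreceptors shape their slow light response with an inward current through HCN channels and an outward potassium current in the inner segment. Ganglion cells carry the fast potassium channels that repolarise spikes along the optic nerve, where oligodendrocytes wrap the axons in myelin.

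The frames held 4603 spots over tissue and 3522010 UMIs, with 674029 to 1066633 UMIs per frame and a median of 430 to 630.5 UMIs per spot. A spot is a small region that can hold several cells, so spots were grouped by panels of marker genes, and a class below is a mixture led by the named cells. The rod class had 1121 spots, the inner retina class 453 and the ganglion class 774. The myelin class had 121 spots, drawn by oligodendrocyte genes such as Mbp, Mobp and Mog, with 0, 30, 31 and 60 spots in frames 1 to 4. It stands for the labelled optic nerve only through these markers, because spot positions were not used. Another 1244 spots met no panel, and the rest were led by pigmented, fibrous, muscle, epithelial or blood genes. Frames shared 1271 barcodes, since slides reuse a fixed set of spot barcodes. Levels are UMIs scaled to a common total over all UMIs of the frame or class (CPM), given as mean ± SD over frames (n = 4, or n = 3 for the myelin class). In such sums, fewer cells of a type and less RNA per cell cannot be told apart.

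Genes kept out of the panels followed the class names. The summed level of 12 further rod genes was 34433 ± 2437 CPM in the rod class against 7094 ± 2753 in the inner retina class. The summed level of 10 further ganglion cell genes was 3672 ± 89.7 CPM in the ganglion class and 1327 ± 430 in the inner retina class. For the inner retina class the sum separated weakly, since its 11 further genes summed to 1224 ± 359 CPM there and 904 ± 39.7 in the ganglion class. Calb2 alone gave 586 of the 749 UMIs in the ganglion class, at 711 CPM against 175 in the inner retina class (pooled). Each of the other genes was higher in the inner retina class, from Gabrr1 at 368 against 32.8 CPM to Calb1 at 66.3 against 43.7. In the myelin class, 9 of 10 further myelin genes had UMIs and summed to 4580 ± 979 CPM, against 143 ± 15.4 in the ganglion class. Among them were 108 UMIs of Cldn11 and 27 of Mag, both myelin sheath proteins, while the lineage factor Olig1 had 0.

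Hcn2 encodes a pacemaker channel subunit that is known from neurons and from myelinating oligodendrocytes. The gene (ENSMUSG00000020331) lies at chr10:79716634-79736108 and Kcnh7 (ENSMUSG00000059742), described below, at chr2:62693410-63184287, both on GRCm38.p6, the assembly behind mm10. For these 2 of the 5 genes a RefSeq promoter sequence was at hand. They are shown because their highest levels fell in different classes, Hcn2 in the myelin class and Kcnh7 in the ganglion class. Each stretch gives the 250 bases before the annotated start, 5′ to 3′ on the strand of the gene, with CG dinucleotides in capitals.
Hcn2, chr10:79716384-79716633, + strand: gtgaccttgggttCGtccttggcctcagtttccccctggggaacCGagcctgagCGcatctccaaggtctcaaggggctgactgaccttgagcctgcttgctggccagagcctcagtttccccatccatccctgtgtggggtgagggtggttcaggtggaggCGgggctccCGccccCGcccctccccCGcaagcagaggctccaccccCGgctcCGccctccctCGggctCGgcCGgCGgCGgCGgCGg
Kcnh7, chr2:63184288-63184537, - strand: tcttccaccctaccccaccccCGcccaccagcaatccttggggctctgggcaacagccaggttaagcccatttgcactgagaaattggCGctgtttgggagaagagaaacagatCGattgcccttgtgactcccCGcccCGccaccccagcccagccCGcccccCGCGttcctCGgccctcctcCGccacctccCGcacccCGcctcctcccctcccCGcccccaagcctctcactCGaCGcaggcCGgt
Both stretches held 16 CG dinucleotides, against a median of 6 over 32851 RefSeq mouse promoter stretches of that length, and 74.6% of those held fewer. Their G and C content was 70.4% for Hcn2 and 67.6% for Kcnh7. Of 2 short motifs searched on both strands, TAATCC (the core bound by photoreceptor homeobox factors) and ACAAAG (a core bound by TCF/LEF factors), neither occurred in these letters, and they occurred in 6.25% and 16.5% of the 32851 stretches.

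Hcn2 was highest in the myelin class in every frame that had one. Over all spots its level was 30.1 CPM in frame 1, 34.7 in frame 2, 63.2 in frame 3 and 93.5 in frame 4. Frames 3 and 4 thus stood above frames 1 and 2, and frame 4 also held the most myelin spots. With the myelin class left out, the levels were 30.1, 26.4, 31.2 and 29.2 CPM, with a mean of 29.2 ± 2.04 (SD, n = 4). The 121 myelin spots held 82 of the 183 Hcn2 UMIs, or 44.8%.

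Within the myelin class Hcn2 reached 1357 CPM in frame 2, 1508 in frame 3 and 1837 in frame 4. These 3 sums rested on 6630, 19229 and 23957 UMIs of all genes. In the ganglion class the 4 frames gave 62.8, 63.2, 61.3 and 43.5 CPM. In the inner retina class they gave 29.8, 34.5, 14.0 and 36.8 CPM, and in the rod class 8.18, 11.5, 14.9 and 13.1. The order was therefore myelin, ganglion, inner retina and rod. The frame values of the first 3 classes did not overlap, while the ranges of inner retina and rod did. The inner retina values of frames 3 and 4 rest on 1 and 2 UMIs, and the lowest ganglion value on 8. The gap between ganglion and inner retina is therefore not secure by frame. The pooled myelin level of 1646 CPM (95% exact Poisson interval 1309 to 2043) was 28.3 times the ganglion level, 54.95 times the inner retina level and 138 times the rod level. Intervals of this kind cover counting error only. Hcn2 UMIs were seen in 37 of 121 myelin spots, at most 8 in 1 spot, and in 11 of 1121 rod spots.

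**Figure D1:**
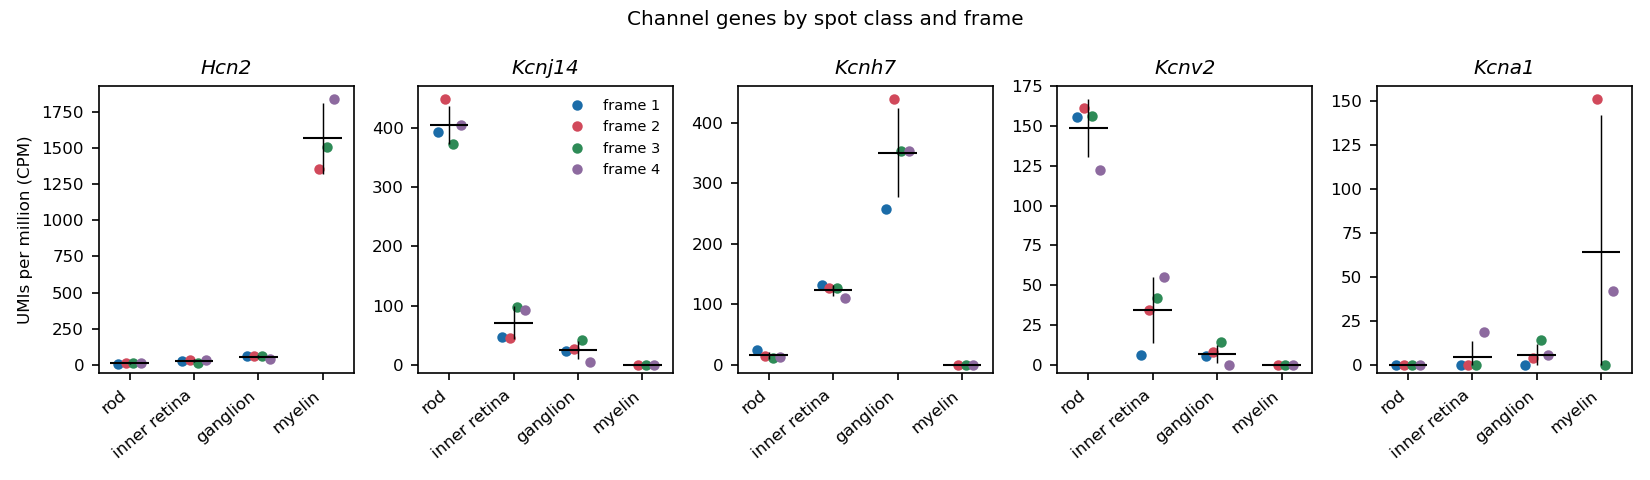
Level of each of the 5 genes in CPM (vertical axis, its own scale in each panel) in the rod, inner retina, ganglion and myelin spot classes, with 1 point per frame and the mean ± SD as bars. Hcn2 stood highest in the myelin class at 1357 to 1837 CPM, Kcnj14 and Kcnv2 in the rod class, and Kcnh7 in the ganglion class, while Kcna1 rested on 11 UMIs in all.

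Hcn2 was also set against the share of myelin panel UMIs of a spot, within the myelin class and outside it. The 61 myelin spots with the higher share of myelin panel UMIs (median 23.5% of the spot) gave 2038 CPM of Hcn2 (1552 to 2630). The 60 spots with the lower share (median 6.79%) gave 1102 CPM (699 to 1653). These intervals overlapped slightly, and both groups pool the spots of frames 2 to 4. Outside the class, the 746 spots with at least 1 myelin panel UMI gave 28.4 CPM (18.4 to 41.9), and the 3736 spots with none gave 29.3 CPM (23.1 to 36.7). The 746 spots had a median myelin share of only 0.138%, so a link with Hcn2 of the size seen in the class could not be read from them. The myelin panel itself summed to 247 ± 175 CPM in the ganglion class and 244 ± 235 in the rod class, while Hcn2 in the same classes was 57.7 ± 9.52 and 11.9 ± 2.85 CPM.

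Markers of other cells also stood high in the myelin class. Of 5 astrocyte genes 3 had UMIs there, and their sum ranged from 5886 to 12637 CPM against 364 to 524 in the ganglion class. Gfap, the astrocyte filament protein, gave 301 UMIs, and Aldh1l1 and Slc14a1 were at 0. Microglial genes summed to 624 to 1056 CPM against 179 to 296 in the ganglion class, with 6 of 7 seen. Their part in the Hcn2 level was not tested. Of 5 Schwann cell genes, which mark the myelin of peripheral nerves, Ncmap and Pmp2 were at 0 and Prx had 1 UMI, and the sum of 376 to 452 CPM came mostly from 17 UMIs of Pmp22.

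**Figure D2:**
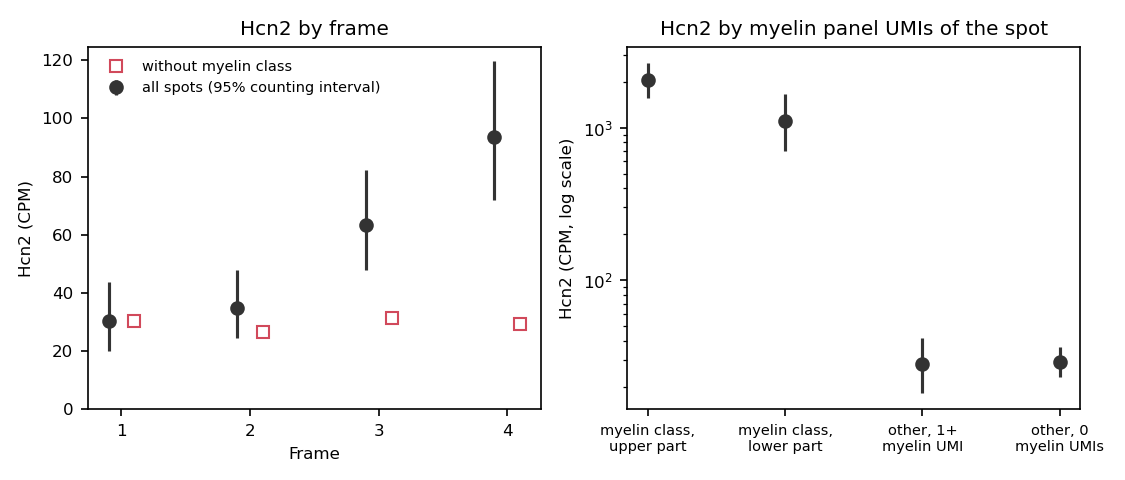
Left, Hcn2 in CPM by frame over all spots with 95% counting intervals (filled) and without the myelin class (open squares). Right, Hcn2 in CPM on a log axis for myelin-class spots above and below their median myelin share and for other spots with and without myelin UMIs, where the last pair lay at 28.4 and 29.3 CPM.

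Kcnj14 encodes an inward rectifier of the Kir family, channels that hold the membrane near its resting potential. The gene (ENSMUSG00000058743, chr7:45816467-45824747) was even across frames, at 148, 157, 151 and 174 CPM over all spots. By class it was a rod-class gene. The rod class gave 393, 448, 373 and 405 CPM in frames 1 to 4. The inner retina class gave 47.7, 46.0, 98.2 and 92.0 CPM, and the ganglion class 22.8, 27.6, 42.5 and 5.43. The 4 frames of the rod class lay above all others, and inner retina lay above ganglion with no overlap. The rod class held 406 of the 551 UMIs (73.7%), spread over 276 spots. None was found in the myelin class, where a count of 0 is read as up to 60.2 CPM. On that reading the rod level was at least 6.72-fold higher.

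Kcnv2 encodes a silent subunit that makes no channel alone and alters the channels of the subunits it joins, and its loss in people causes a cone dystrophy with unusually large rod responses. The gene (ENSMUSG00000047298, chr19:27322061-27337179) gave 56.9, 67.5, 65.5 and 65.3 CPM over all spots of frames 1 to 4. In the rod class it gave 155, 161, 157 and 122 CPM, in the inner retina class 5.96, 34.5, 42.1 and 55.2, and in the ganglion class 5.71, 7.90, 14.2 and 0. The rod class again lay above the inner retina and ganglion classes in every frame, whereas those 2 overlapped. In frame 4 the fibrous class gave 152 CPM, above the rod class, but on 2 UMIs. The rod class held 150 of 225 UMIs (66.7%), and the myelin class none. By the same reading of 0 the rod level was at least 2.48-fold higher. Cone genes peaked in the same class, at 1085 ± 64.2 CPM summed over 7 genes against 218 ± 75.9 in the inner retina class, so rod and cone sources of Kcnv2 cannot be told apart in these spots.

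The levels of Kcnj14 and Kcnv2 in the inner retina and ganglion classes lay within the range of other rod genes. Kcnj14 in the inner retina class stood at 14.8% of its rod-class level and Kcnv2 at 18.6%, and 12 rod genes kept out of the panel had a median of 18.6% (11.7% to 36.8%). In the ganglion class the values were 6.29% and 4.87%, with a median of 6.60% for the 12 genes (3.78% to 13.5%). In the pigmented class they stood at 18.2% and 21.3%, where the lowest of the 12 genes stood at 21.4%. These values rest on 30 and 13 UMIs, too few to set either apart from that lowest gene. In the 1244 spots of no class the 2 genes parted, with Kcnj14 at 18.1% (42 UMIs) and Kcnv2 at 39.6% (34 UMIs). The 12 genes ranged from 23.0% to 48.4% there. How much of these levels is rod RNA that lies in or spread into such spots was not tested. Of 1121 rod spots, 276 had Kcnj14, 116 had Kcnv2 and 43 had both.

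The classes were also replaced by a ranking on the same rod panel, which is not independent of them. When all spots of a frame were cut into 5 equal groups by their share of rod panel UMIs, Kcnj14 averaged 8.09, 16.9, 81.4, 207 and 431 CPM from the lowest to the highest group. Kcnv2 averaged 2.59, 5.94, 45.2, 117 and 146 CPM. For both genes the mean was higher in each next group, although frame 4 alone had less Kcnv2 in the top group (99.8 CPM) than in the one before it (197 CPM).

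**Figure D3:**
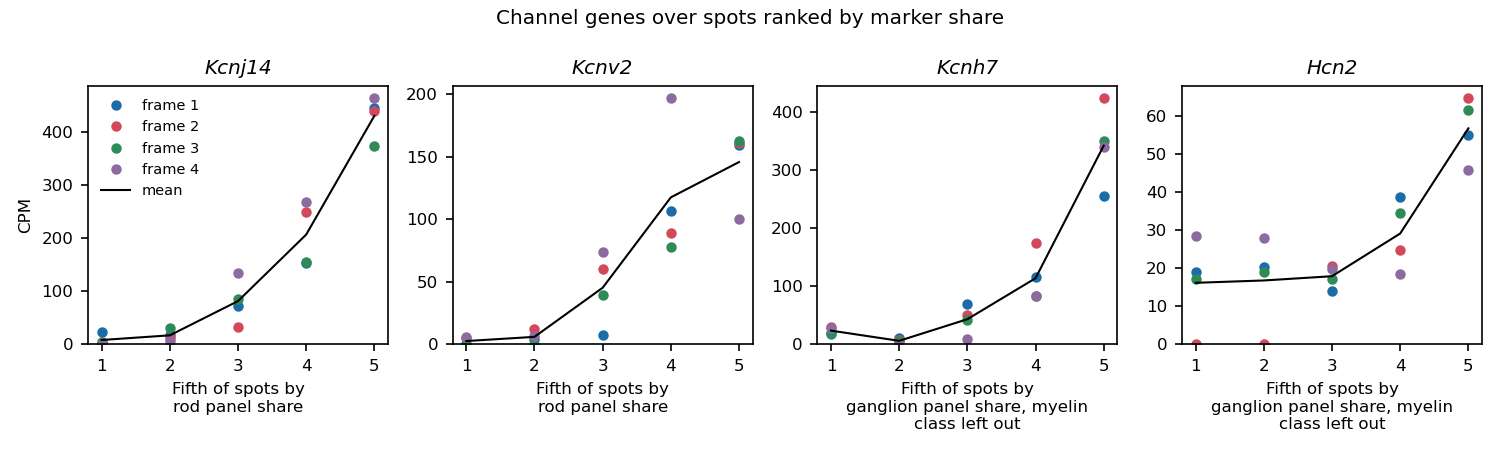
Level in CPM of Kcnj14 and Kcnv2 over 5 equal groups of spots ranked by rod panel share, and of Kcnh7 and Hcn2 over 5 groups ranked by ganglion panel share without the myelin class, with 1 point per frame and a line through the means. The highest group had the highest mean for each gene, 431, 146, 342 and 56.7 CPM in that order.

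Kcnh7 encodes a channel of the ERG family, which opens slowly and damps repetitive firing. It gave 109, 152, 112 and 119 CPM over all spots of frames 1 to 4. In the ganglion class it gave 257, 438, 354 and 353 CPM, and in the inner retina class 131, 126, 126 and 110. The rod class gave 24.5, 15.3, 11.2 and 13.1 CPM. The 3 classes did not overlap in any frame, and within the ganglion class frame 1 was lowest and frame 2 highest. The ganglion class held 296 of 439 UMIs (67.4%) in 181 spots. No UMI lay in the myelin class, against which the ganglion class stood at least 5.96-fold higher. The inner retina level was 35.2% of the ganglion level, and 9 ganglion cell genes kept out of the panel had a median of 27.6% (19.2% to 43.6%).

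By share of ganglion panel UMIs, with the myelin class left out, Kcnh7 averaged 43.2, 114 and 342 CPM in the upper 3 of 5 groups. The lowest 2 groups both had a median share of 0, so their order has no meaning. Hcn2 averaged 17.9, 29.1 and 56.7 CPM in the same 3 groups. In the ganglion class 181 spots had Kcnh7, 43 had Hcn2 and 17 had both.

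Kcna1 encodes a Kv1 subunit known from the membrane beside the nodes of myelinated axons. The gene (ENSMUSG00000047976, chr6:126636463-126645801) had 11 UMIs in 8 spots, 3, 2, 3 and 3 in frames 1 to 4, or 3.27 ± 1.06 CPM. Of these, 5 were in the ganglion class, 2 in the myelin class, 1 in the inner retina class and 3 in spots of no class. The rod class had 0 UMIs, which is read as up to 2.99 CPM. At this depth no order of the classes could be read for Kcna1.

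The genes most like each member were sought over the 29 sums of frame and class, by Pearson correlation of log2(CPM + 10) among 4865 genes with at least 100 UMIs. These sums share frames and class markers, so the values only describe. Hcn2 was most like Mbp (0.83), Cldn11 (0.83), Mobp (0.82) and Cnp (0.80), all myelin genes of which Cldn11 alone was outside the panel, and then the neuronal Stmn4 (0.78). Kcnj14 was most like Elovl4 (0.88), which makes very long fatty acids in photoreceptors, the guanylate cyclase Gucy2e (0.86), the disc transporter Abca4 (0.84), Anp32e (0.84) and Gnb1 (0.83). Kcnh7 was most like Chst1 (0.94), AI593442 (0.94), the synaptic Cplx2 (0.93), Fgf12 (0.93) and the Kv3 gene Kcnc1 (0.92). Kcnv2 was most like Lrit1 (0.93), a photoreceptor synapse protein, Pcbp4 (0.86), Mpp4 (0.86), Tmx1 (0.84) and Fam149a (0.83). Kcna1 was too sparse for this measure.

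The other HCN and potassium channel genes were read from a list of 93, of which 78 had UMIs and 22 had enough for the test. Counts were summed per frame and class and compared by edgeR's quasi-likelihood test with the frame as a block and Benjamini-Hochberg adjustment over all 4228 genes tested. The same spots drew the classes and were tested, and with 1 sum per frame the p-values measure the spread between these frames only. Between inner retina and rod, 20 of the 22 passed, where 39.2% of all genes did. The count was 10 of 11 with only these classes in the fit, where 39.2% of all genes passed. With Leiden clusters as classes it was 8 of 16, where 19.2% of all genes passed. Without the filter on low counts it was 22 of 75, where 10.2% of all genes passed. The median log2 fold (inner retina minus rod) of the 22 was 2.40, against 0.02 over all genes, with 17 higher in the inner retina class (23.2% of all genes) and 3 lower (16.1% of all genes).

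Among the 3 lower genes was Pex5l, an auxiliary subunit that binds HCN channels, named after its value was seen. It had 152 ± 18.0 CPM in the rod class and 54.0 ± 43.2 in the inner retina class. Its log2 fold was -1.74 ± 0.41 (SE; adjusted p = 0.00014, edgeR). Of the HCN channel genes themselves, Hcn3 and Hcn4 had 23 and 29 UMIs in all and were too sparse to test.

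Channels higher in the inner retina class came from several families. All 7 tested genes of the Kv4 group, which carries transient currents, were higher, and so were both Kv3 genes, which repolarise fast spikes. Of these 7, Kcnd2, Kcnd3 and Kcnip1 rested on 2 or 3 rod-class UMIs, and their calls give no support, as set out below. Kcnip4 and Kcnip3 were also sparse, with 5 and 8 rod-class UMIs against 15 and 21 in the inner retina class. Kcnc1 (Kv3) had a log2 fold of 3.05 ± 0.54 (adjusted p = 3e-07, edgeR), from 9.19 ± 6.56 CPM in the rod class to 99.1 ± 21.6. Kcna5 (Kv1) had 31.6 ± 8.41 against 240 ± 69.1 CPM, and Kcnma1, the large calcium-gated channel, 10.7 ± 6.09 against 126 ± 70.1 CPM, with log2 folds of 2.66 and 3.19. The sodium-gated Kcnt1 had a log2 fold of 2.80, which was 0.82 with Leiden clusters as classes and no longer passed. Kcna2, Kcnd2, Kcnd3, Kcnip1 and Kcnj10 passed on 1 to 3 rod-class UMIs. With only these 2 classes in the fit, only 11 channel genes had enough counts to be tested, of which 7 were higher and 3 lower. The genes outside these 11, among them Kcnt1 and the genes just named, entered the test through their counts in other classes. Their calls are no support for the count of 20 or for the 17 higher. For the genes with 1 to 3 rod-class UMIs the pooled ratio is given with its exact counting interval. It was 38.6 (6.10 to 1610) for Kcna2, the axonal Kv1 subunit, and 20.03 (6.19 to 103) for Kcnd3. For Kcnd2 the ratio was 8.59 (1.71 to 83.0) on 8 against 2 UMIs. The ratio was 17.2 (4.04 to 154) for Kcnip1, a partner of Kv4 channels that was higher in 3 of 4 frames and lost its call without frame 3. Kcnj10, the inward rectifier of Müller glia, had a ratio of 9.66 (2.00 to 91.9) on 9 against 2 UMIs and lost its call under 7 of 8 other settings, among them without frame 1, 3 or 4. Kcnab2, a beta subunit, did not pass (log2 fold -0.74, adjusted p = 0.15, edgeR). Kcnb2 was too sparse to test.

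Between ganglion and inner retina, 7 of the 22 passed, against 16.1% of all genes, with a median log2 fold of 0.32 against -0.01. Of all genes 8.11% were higher and 8.02% lower, and of the 22 there were 5 higher and 2 lower. The count fell to 3 without frame 1, to 4 without frame 2 and to 4 with DESeq2, where 8.87%, 9.36% and 13.7% of all genes passed. Of 7 tested genes of the Kv4 group 3 were higher (Kcnd2, Kcnip4 and Kcnip2), and Kcnip1 (0.84), Kcnd1 (0.17), Kcnd3 (-0.30) and Kcnip3 (-0.32) did not pass. Kcnd2 had 87.7 ± 42.9 CPM in the ganglion class and 23.2 ± 21.4 in the inner retina class, a log2 fold of 2.35 ± 0.64 (adjusted p = 0.0037, edgeR), higher in 3 of 4 frames and not passing without frame 2. Kcnip4 had 140 ± 55.1 against 28.0 ± 19.5 CPM and a log2 fold of 2.13 ± 0.49. Kcnab2 had 188 ± 48.0 against 55.2 ± 26.1 CPM and a log2 fold of 1.68 ± 0.39. The calls of Kcnip4 and Kcnab2 held under all 11 other settings. Kcnk9, a leak channel (1.57), and Kcnip2 (1.29) also passed, with calls lost in 6 and 3 settings. Among these were the fits without frame 2 or 4 for Kcnk9 and without frame 1 or 2 for Kcnip2. With only the classes of this comparison in the fit, 6 of 13 channel genes passed, against 19.0% of all genes. Of these, 3 were higher and 3 lower, and the median log2 fold of the 13 was 0.10, so the tilt toward higher was not seen there. Kcnd2 and Kcnk9 had too few counts to be tested there, so their calls are no support for the count of 7. Kcnma1 was lower (-1.71), a call lost without frame 1 and under stricter class limits. Kcna2 (0.42) and Kcnj10 (-1.02) did not pass, and the sign of Kcna2 turned without frame 2.

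**Figure D4:**
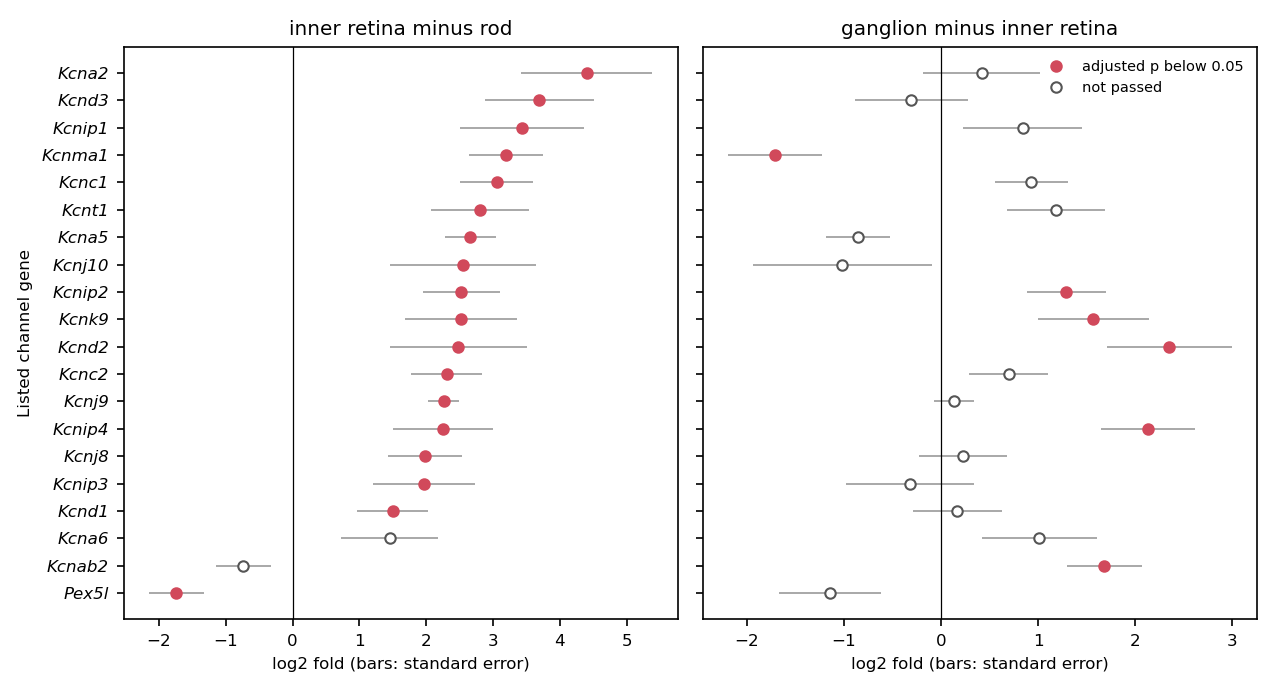
Log2 folds of 20 of the 22 listed channel genes with enough counts, inner retina minus rod (left) and ganglion minus inner retina (right), with standard errors as bars and filled points where the adjusted p passed. On the left 17 genes were higher and Pex5l lower, and on the right 5 were higher and Kcnma1 lower; the sign of Kcna2 on the right turned without frame 2.

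Between the myelin class and the neural retina (the mean of the 3 other classes), 5 of the 22 passed, against 19.6% of all genes. There was 1 higher (5.2% of all genes) and 4 lower (14.4% of all genes). The fitted folds of all genes were shifted here, with a median of -1.04 on the log2 scale (-0.76 with DESeq2), and 220 of the 827 genes that passed were higher (218 of 481 with DESeq2). The count of 5 fell to 1 without frame 2, 1 without frame 3 and 3 without frame 4, where 11.3%, 9.07% and 12.8% of all genes passed. It fell to 2 with DESeq2 (11.4% of all genes) and to 2 with only the classes of the comparison (8.77% of all genes). No median is given for the list, because 10 of the 22 had 0 UMIs in the myelin class. Kcnj10, also the inward rectifier of oligodendrocytes and astrocytes, was the 1 gene higher, at 163 ± 120 CPM on 6 UMIs. Its log2 fold was 3.52 ± 1.03 (adjusted p = 0.0068, edgeR), higher in 3 of 3 frames and not passing without frame 3 or frame 4. It got no adjusted p with DESeq2 and was not tested under stricter class limits or without frame 2. Kcnj9, a G protein gated rectifier, was lower by 1.46 in log2 terms. That call was lost without frame 2 or frame 3 and with only the classes of the comparison in the fit. Kcnab2 had 0, read as up to 60.2 CPM, and on that reading was at least 1.93-fold lower than in the neural retina. The call of Kcnab2 was lost without frame 2, 3 or 4, with DESeq2 and with only the classes of the comparison in the fit. Kcna2 had 0 UMIs there and did not pass. The myelin class had 0 UMIs of Hcn3 and Hcn4, which were at 9.59 CPM each in the neural retina. That is below the floor of 60.2 CPM for a gene with no UMI in the myelin class, so these zeros show no difference.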

How the data were processed

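The values are counts: whole numbers of UMIs per gene and spot, which the authors deposited after Space Ranger 2.0.0 (per the file headers) on mm10 (per the submitters' processing notes). No source here names the annotation release. All spots in the matrices were used, and spot images and positions were not. A spot joined the class whose panel exceeded its expected UMIs most, with at least 3 panel UMIs and 1.5 times the expected number. UMIs were summed per frame and class with at least 10 spots. The 82 panel genes count in CPM but entered neither the test nor its library sizes. Sums were tested with edgeR 4.0.16 in R 4.3.3 (TMM, filterByExpr at a minimum count of 10, robust quasi-likelihood, adjusted p of 0.05), and the test was tried on simulated counts. A count of 0 is read as up to 3 UMIs of the class.

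The frame was the block because both sums of a pair come from 1 frame. Their leftover values correlated at 0.05 to 0.16 for rod and inner retina, 0.03 to 0.09 for inner retina and ganglion, and 0.00 to 0.03 for ganglion and myelin. Named genes were the members, up to 8 passing channel genes per comparison by size of fold, and Kcnb2, Kcna2, Kcnab2 and Kcnj10. Some genes counted in the lists are not reported here by name. Members and lists were chosen with earlier results of these data known. Kcnj8 is in both the channel list and the vascular markers, which summed to 376 to 1352 CPM in the myelin class and 352 to 656 in the ganglion class. Gene coordinates and promoters are from RefSeq on GRCm38.p6. Alternatives were DESeq2 1.42.0, no filter, no block, other class limits, Leiden clusters, CPM outside the panel and leaving out each frame.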

Additional observations from a re-analysis of the deposited data

Results flagged for a closer look

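In 8 of 64 groups of 4 frames, 1 frame lay far from the other 3 by Dixon's test, which by chance flags about 1 group in 20. For Hcn2 in the ganglion class it was the low frame 4 at 43.5 CPM, and for Kcnv2 in the rod class also the low frame 4, at 122 CPM. Kcna1 in the inner retina class had 18.4 CPM in frame 4, which is 1 UMI.

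Among other channel genes, Kcnd2 in the inner retina class had a frame at 55.2 CPM. In the rod class the frame that stood apart was at 3.83 CPM for Kcna2, 0 for Kcnd3, 8.72 for Kcnip4 and 148 for Kcnj9. The rod-class values of Kcna2 and Kcnd3 rest on 1 and 3 UMIs in all.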

How the results depend on the processing

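Of the recomputed levels of the members and counts of genes that passed, 86 stayed within their limits and 21 moved. Of the recomputed values of named channel genes, 166 kept direction and call, 31 lost the call and 1 turned. It was Kcna2, ganglion minus inner retina, at -0.17 without frame 2, and it ranged from -0.17 to 0.84 with each frame left out. The cause was not tested.

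With only the classes of a comparison in the fit, fewer genes were tested. There 10 of 11 channel genes passed for inner retina minus rod (39.2% of all genes). For myelin 2 of 13 passed, with 309 of all genes (8.77%). DESeq2 passed 4 channel genes for ganglion minus inner retina, against 13.7% of all genes. For myelin it passed 2, where 481 of all genes passed and 1476 had no adjusted p. Without the filter on low counts 22, 9 and 5 of 75 channel genes passed in the 3 comparisons, against 10.2%, 2.86% and 6.41% of all genes. Leiden clusters gave 8 of 16 channel genes and 666 of all genes for inner retina minus rod. Without the frame as a replicate block, 20, 6 and 5 channel genes passed in the 3 comparisons, against 38.3%, 13.9% and 18.6% of all genes. Leaving out each frame gave 15 to 20, 3 to 8 and 1 to 5 channel genes, and 1176 to 1572, 359 to 587 and 409 to 767 of all genes. The low counts came without frames 1 and 2 for ganglion (3 and 4 channel genes) and without frames 2, 3 and 4 for myelin (1, 1 and 3).

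Hcn2 in the myelin class was 1885 CPM outside the panel and 1433 to 1672 with each frame left out. Kcnj14 in the rod class was 459 CPM under stricter class limits, 355 by Leiden clusters, 442 outside the panel and 390 to 415 with each frame left out. The same ranges were 321 to 382 for Kcnh7, 145 to 158 for Kcnv2 and 3.13 to 7.85 CPM for Kcna1, and the other settings moved these 3 by less than their SD. Leaving the myelin spots out of the frame totals of Hcn2, chosen after seeing the data, gave 29.2 CPM against 55.4. Depth limits the myelin class most, with 49816 UMIs in all and a floor of 60.2 CPM for a gene with no UMI.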
